A study of Mus musculus with 4 samples.

Results

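Recovery from a liver-injuring diet was followed in the livers of control mice. The choline-deficient, ethionine-supplemented (CDE) diet was fed to mice of the C57BL/6J background with a floxed Ogt gene. Livers were collected at the end of the diet (no recovery) or 7 days later (recovery). Control mice had received AAV8-TBG-eGFP, a virus that expresses a green fluorescent protein from a promoter active in hepatocytes, and so kept the enzyme OGT. The OGT-KO label stands for mice of the same floxed line given AAV8-TBG-CRE, in which the same promoter drives Cre recombinase, sampled at the same 2 stages. Each of the 4 conditions is 1 mRNA-seq library of whole liver RNA pooled from 3 mice, so no value below has a replicate error and no test across mice could be made. Sex and age are not given in the sources used here.

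For each gene the change was taken as the difference of log2(CPM + 1), recovery minus no recovery, where CPM are read counts scaled so that each library sums to 1000000. The rule kept a gene when its 4 values averaged 10 CPM or more, which left 8963 of 13903 genes. Tlr3, averaging 10.0003 CPM, lay just inside this limit and P4ha2, averaging 9.9995 CPM, just outside it. A gene is written here as risen or fallen when it passed 2-fold, and counts at 1.5-fold are given beside it. The 2 control libraries hold 21257763 reads (no recovery) and 19972699 reads (recovery), and 3 reads, taken as the detection floor, are 0.141 and 0.15 CPM. Intervals in brackets are exact 95% counting intervals, which cover counting error and not differences between mice.

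The labels were first set against marker genes. Ogt, which encodes the enzyme that attaches O-GlcNAc to proteins, stood at 64.7 CPM with no recovery and 55.7 CPM after recovery in control livers, while the OGT-KO livers had 55.3 and 77.7 CPM. The whole-gene value thus does not tell the genotype labels apart, so the other 2 libraries are called labelled OGT-KO throughout. Oga, which removes the modification, was at 57.7 and 70.2 CPM in control livers. Defining hepatocyte genes moved little between the 2 control libraries. Alb (albumin) had 47845 and 54434 CPM, Hnf4a (a transcription factor of hepatocyte identity) 851 and 864 CPM, and the changes of Alb, Apoa2, Ttr, Hnf4a and Cps1 lay between -0.12 and 0.19. Markers of bile duct cells were scarce, with Krt7 at 0.894 and 1.10 CPM and Krt19 at 1.69 and 1.15 CPM. Of the 4 pancreatic and erythroid markers, Prss2 had no read in either control library, while Cela1, Hba-a1 and Hbb-bs were detected in both.

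Choline is needed to build phosphatidylcholine, and its lack loads hepatocytes with fat, while ethionine disturbs methionine metabolism, so the diet injures hepatocytes and draws in scar-forming and immune cells. A liver leaving such injury is known to adjust several programs that are read out by well-studied genes. Metallothioneins buffer zinc and copper, acute phase proteins are secreted under cytokine control, chaperones handle misfolded proteins, and Kupffer cells are the resident macrophages of the sinusoids.

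Most genes hardly moved. The median change of the 8963 genes was -0.05 with an SD of 0.29 across genes. At least 2-fold, 22 genes (0.245% of those compared) rose and 86 (0.96%) fell, and at least 1.5-fold, 109 (1.22%) were higher and 364 (4.06%) lower. Many of the fallen genes were low in control livers: 41 of the 86, and 3 of the 22 that rose, had a mean under 10 CPM over the 2 control libraries and entered the comparison through the libraries labelled OGT-KO. Of the 108 genes past 2-fold, 52 belonged to the 56 gene lists described here. On the higher side lay metallothioneins and acute phase genes, and on the lower side chaperones, hormone and fasting responsive genes, and macrophage markers. Endothelial and stellate cell markers were lower by less, with 0 of 17 and 1 of 14 compared past 2-fold.

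**Figure D1:**
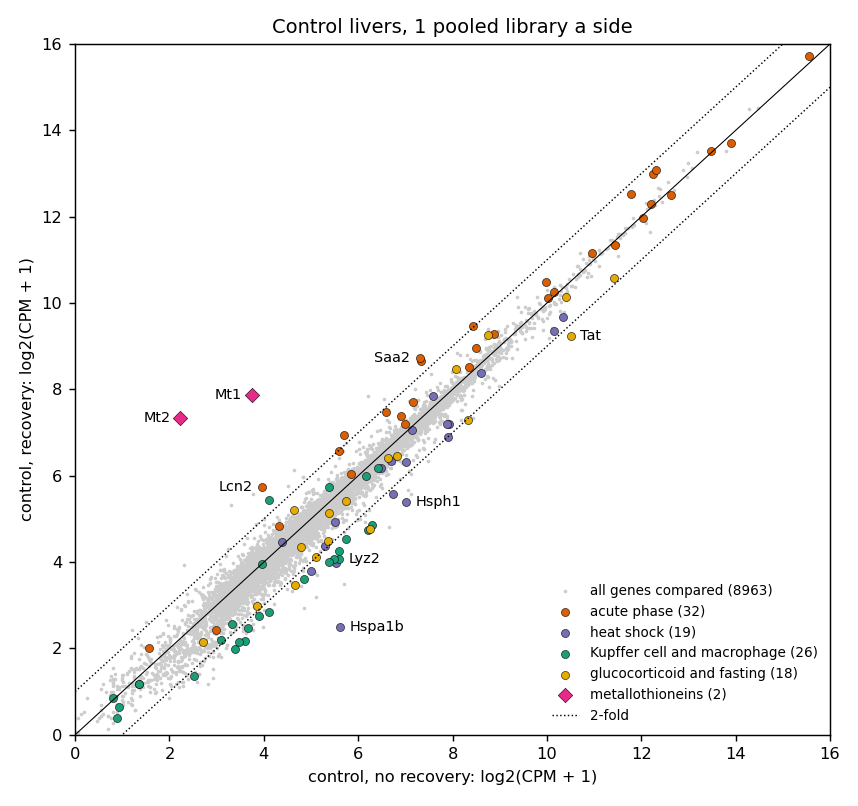
Each point is 1 of the 8963 genes compared, with log2(CPM + 1) in the control library without recovery (x axis) and with recovery (y axis); dotted lines mark 2-fold, and colored points are members of the named lists. Mt1 and Mt2 lie farthest above the diagonal, Hspa1b farthest below it, and green macrophage markers sit mostly along or under the lower line.

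Metallothioneins rose most. Mt1 and Mt2 encode the small cysteine-rich proteins that bind zinc and copper in the liver, and both are transcribed from promoters with metal response elements, the sites read by the zinc-sensing factor Mtf1. Their promoters are shown because these genes had the largest changes of the comparison. The sequences come from RefSeq on GRCm38.p6, which is not the GRCm39 build named for the deposited table, and capitals mark the core letters TGCACNC or TGCGCNC on either strand. Each runs 5′ to 3′ to 30 bases past the annotated start: Mt1 from chr8:94179009-94179118, plus strand, and Mt2 from chr8:94172468-94172647, plus strand.

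Mt1: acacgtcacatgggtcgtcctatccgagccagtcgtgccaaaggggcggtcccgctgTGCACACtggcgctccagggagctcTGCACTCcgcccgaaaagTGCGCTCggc
Mt2: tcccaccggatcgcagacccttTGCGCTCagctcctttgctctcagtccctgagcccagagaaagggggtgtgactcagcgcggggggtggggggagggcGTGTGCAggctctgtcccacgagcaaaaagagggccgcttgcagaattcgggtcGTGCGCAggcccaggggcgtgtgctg

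Mt1 has 3 matches in its 300-base promoter entry, all printed, and Mt2 has 4, of which 3 are printed. These letters are common, being found in 25.7% of the 32851 promoter entries, so a match is a description only. Mt1 was at 12.4 CPM with no recovery and 231 CPM after recovery, a ratio of 18.7 (16.5 to 21.2). Mt2 went from 3.67 to 162 CPM, a ratio of 44.1 (35.2 to 55.9). Neither gene rose in the pair labelled OGT-KO, where Mt1 had 136 and 109 CPM and Mt2 69.4 and 52.3 CPM. The control library without recovery was thus the low one of the 4 for both genes. Mt3, the brain form, had no read in either control library.

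The other zinc genes moved far less. Slc39a14, a zinc and iron importer of hepatocytes, was at 184 CPM with no recovery and 326 CPM after recovery (log2 change 0.82), while the pair labelled OGT-KO had 203 and 159 CPM. Slc39a1 changed by 0.16, and Slc30a1, a zinc exporter that is itself a target of Mtf1, by 0.26. Mtf1 had 27.8 and 25.6 CPM. Of the 10 members of the metallothionein and zinc list that were compared, 2 passed 2-fold, 3 passed 1.5-fold upward and 0 downward, against 0.245% and 1.22% of all genes higher, and the median was 0.20.

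Acute phase genes were higher after recovery. Most are secreted or signalling proteins of the hepatocyte that interleukin 6 and interleukin 1 induce. The list also holds 5 negative acute phase genes, which these signals do not induce. Of 34 listed genes 32 were compared, 26 had a positive change and the list median was 0.41, against -0.05 over all genes. Without the negative ones, 27 were compared, 24 had a positive change and the median was 0.48. At 2-fold 5 rose and 0 fell, and at 1.5-fold 10 were higher and 0 lower, against 0.245% and 1.22% of all genes. Those that rose were Lcn2 (lipocalin 2, which binds bacterial iron carriers), Saa2 (serum amyloid A), Steap4 (a metalloreductase), Il1r1 (the interleukin 1 receptor) and Serpina3n (a serine protease inhibitor). Lcn2 was at 14.7 CPM with no recovery and 52.8 CPM after recovery, a ratio of 3.60 (3.17 to 4.09). Saa2 had 158 and 425 CPM, Steap4 161 and 406 CPM, Il1r1 50.8 and 123 CPM, and Serpina3n 342 and 705 CPM. All 5 were thus at least 2-fold higher in the later library, and Saa2 is one of several closely related Saa genes whose reads could be shared.

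Fibrinogen, the clotting protein of 3 chains, behaved alike across its genes. Fga had 5117 and 8650 CPM, Fgb 4858 and 8066 CPM, and Fgg 3523 and 5888 CPM, with changes of 0.76, 0.73 and 0.74. Apcs, the serum amyloid P component, went from 47.5 to 94.2 CPM (0.97). The complement and coagulation list, which holds the fibrinogen genes but not Apcs, had a median of 0.05 over 39 genes. The 3 fibrinogen genes were its only members past 1.5-fold. Kng1 and Kng2, the kininogens, were at 0.45 and 0.51. Hamp, which encodes the iron hormone hepcidin and is also induced by interleukin 6, was at 430 and 677 CPM (0.65), and Socs3, a feedback inhibitor of the same signal, at 19.1 and 27.5 CPM (0.51). The 5 negative acute phase genes, among them Alb and Ttr, had a median of -0.09. Among libraries labelled OGT-KO the acute phase median was -0.08, Lcn2 had 487 and 406 CPM, and Steap4 235 and 206 CPM; whether the 2 genotypes differ in this was not tested. Lcn2 is also a neutrophil gene. The neutrophil markers S100a8, S100a9 and Cxcr2 did not pass the filter and rest on few reads, S100a8 at 0.988 and 0.401 CPM from 21 and 8 reads and Cxcr2 from 11 and 3, and the part of these cells in the Lcn2 values was not tested.

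**Figure D2:**
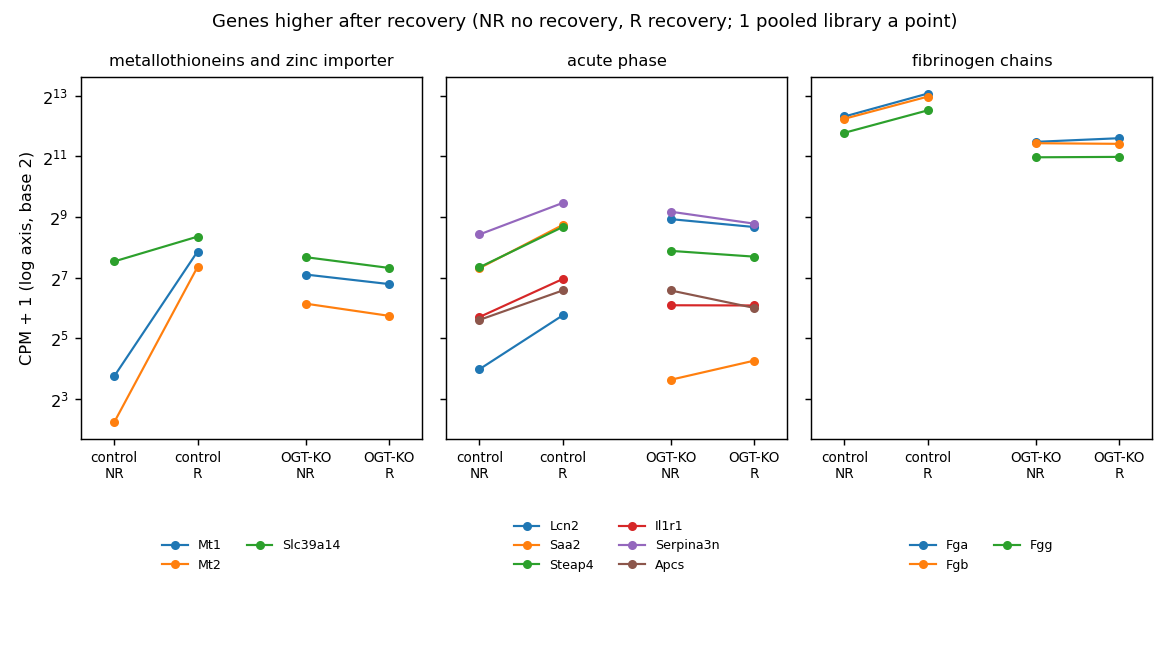
CPM + 1 on a log axis for metallothioneins, acute phase genes and the 3 fibrinogen chains in the 4 pooled libraries, with a line joining no recovery (NR) and recovery (R) of a genotype; each point is 1 library. Lines climb in control and run level or downward in OGT-KO for most genes; Saa2 has the exception of a climb in both.

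Heat shock proteins fell. These chaperones refold damaged proteins and are induced together by the factor Hsf1 through heat shock elements, repeats of GAA and its complement TTC. Of 20 listed genes 19 were compared, 6 fell at 2-fold and 12 were at least 1.5-fold lower, against 0.96% and 4.06% of all genes, and 0 were 1.5-fold higher. Their median was -0.71. Hspa1b, an inducible Hsp70, went from 48.2 to 4.66 CPM, a ratio of 0.0966 (0.0772 to 0.119), the largest fall of the comparison. Hsph1, a nucleotide exchange factor of Hsp70, had 128 and 41.2 CPM, and Dnajb1, an Hsp40 partner, 45.0 and 14.7 CPM. The small heat shock gene Hspb1 (30.8 and 12.8 CPM), the co-chaperone Bag3 (105 and 46.4 CPM) and the cytosolic Hsp90 gene Hsp90aa1 (238 and 117 CPM) also fell. Hspa1a, the near-identical neighbour of Hspa1b, did not pass the filter, and reads shared between these copies make each of them uncertain. Hsf1 itself had a change of 0.07. For livers labelled OGT-KO the median was -0.26 and Hspa1b had 12.2 and 4.03 CPM.

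The promoters of Hspa1b and Hsph1 are shown, as the largest falls of the list, from RefSeq on GRCm38.p6. Hspa1b runs from chr17:34959239-34959358, minus strand, up to its annotated start, and Hsph1 from chr5:149636286-149636385, minus strand, to 30 bases past the downstream of its 2 annotated starts. Capitals mark a pair of units (GAANNTTC or TTCNNGAA) in Hspa1b and a run of 3 units (GAANNTTCNNGAA or TTCNNGAANNTTC) in Hsph1, on either strand; every run of 3 also contains a pair.

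Hspa1b: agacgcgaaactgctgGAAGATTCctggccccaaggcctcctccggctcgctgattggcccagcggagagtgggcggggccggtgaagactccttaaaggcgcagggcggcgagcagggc
Hsph1: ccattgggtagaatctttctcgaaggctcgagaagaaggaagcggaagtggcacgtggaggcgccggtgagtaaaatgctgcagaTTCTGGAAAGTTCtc

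The run of 3 units was found in 0.603% of the 32851 promoter entries, and the pair in 15.1%. Of the 15 compared heat shock genes with an entry, 4 hold the run of 3 (Hsph1, Hspd1, Hspe1 and Chordc1) and 11 the pair. Dnajb1 and Bag3 have no run of 3 in this window.

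Endoplasmic reticulum chaperones were lower as a group. They serve the folding of secreted proteins and are induced by the unfolded protein response through Atf6 and spliced Xbp1. Of 18 such genes, all compared, 3 fell at 2-fold, 7 were at least 1.5-fold lower and 1 was higher, against 0.96%, 4.06% and 1.22% of all genes, with a median of -0.56. Creld2, an endoplasmic reticulum disulfide isomerase, went from 132 to 49.6 CPM, a ratio of 0.375 (0.349 to 0.404). Syvn1, a ubiquitin ligase of endoplasmic reticulum degradation, had 346 and 160 CPM, and Sdf2l1, a chaperone partner, 70.1 and 33.2 CPM. Hyou1 was at 508 and 271 CPM (-0.90) and Manf at 196 and 114 CPM (-0.78). The gene on the higher side was Xbp1, with a change of 0.65. For the other arm, the integrated stress response run by Atf4, 13 genes were compared, 1 fell and the median was -0.11. That gene was Ddit3, the death-linked factor Chop, at 12.3 and 5.31 CPM. Of the 13, 7 averaged under 10 CPM in control livers, Ddit3 among them, against 0 of the 18 chaperones. These 7 passed the filter only through the libraries labelled OGT-KO, so the medians of the arms do not compare genes of like level. The pair labelled OGT-KO had the order the other way round, with medians of -0.03 for the chaperones and -0.70 for the integrated stress genes, and Ddit3 had 93.8 and 23.8 CPM.

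The promoters of Creld2 and Syvn1, which fell most among the chaperone and degradation genes, are printed up to the annotated start, with the endoplasmic reticulum stress element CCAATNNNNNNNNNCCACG in capitals on either strand. Creld2 runs from chr15:88819496-88819645 and Syvn1 from chr19:6046456-6046575, both on the plus strand of GRCm38.p6 and from RefSeq.

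Creld2: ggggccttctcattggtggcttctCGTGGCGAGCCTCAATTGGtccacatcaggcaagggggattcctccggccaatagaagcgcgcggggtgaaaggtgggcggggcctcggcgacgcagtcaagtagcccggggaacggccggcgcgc
Syvn1: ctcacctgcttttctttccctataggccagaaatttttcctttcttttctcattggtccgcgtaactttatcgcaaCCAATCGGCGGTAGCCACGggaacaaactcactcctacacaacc

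In Creld2 the match lies on the opposite strand. The element was found in 0.119% of the 32851 entries and in 8 of the 16 endoplasmic reticulum chaperone genes with an entry, among them Hspa5, Hsp90b1 and Calr. Sdf2l1, whose level also fell, has no match of these letters in its window.

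Genes that answer glucocorticoids and fasting were lower. In this list, which holds the classical targets of the glucocorticoid receptor and of the fasting factors Foxo1 and Creb, 18 of 21 genes were compared. At 2-fold 4 fell, at 1.5-fold 8 were lower and 0 higher, against 0.96%, 4.06% and 1.22% of all genes, and the median was -0.49. Tsc22d3, the glucocorticoid-induced leucine zipper, went from 75.6 to 26.3 CPM, a ratio of 0.348 (0.315 to 0.385). Tat, tyrosine aminotransferase, had 1455 and 600 CPM, Per1 24.3 and 10.1 CPM, and G6pc, the enzyme that releases glucose from the liver, 318 and 156 CPM. Pck1, which controls entry into gluconeogenesis, was at 2751 and 1533 CPM (-0.84), Zbtb16 at 33.4 and 16.4 CPM (-0.99) and Igfbp1, an insulin-repressed secreted protein, at 40.4 and 21.3 CPM (-0.89). Of the 18, 3 had a positive change, and Igfbp2, at 0.50, was among them. On the feeding side, Pklr, the liver pyruvate kinase, had 146 and 257 CPM (0.82), and Angptl8, a feeding-induced inhibitor of lipoprotein lipase, rose from 27.3 to 61.3 CPM. Lipogenesis as a list stayed near the rest, with a median of 0.06 over 23 genes and 0 past 1.5-fold. Under the OGT-KO label Tat and Tsc22d3 were also lower, at 1609 and 823 CPM and at 71.1 and 31.9 CPM, whereas G6pc was at 60.4 and 82.7 CPM.

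Several clock genes were among those lower. Per1 fell, and Usp2 (-0.96), Nfil3 (-0.94), Per2 (-0.70) and Cry1 (-0.59) passed 1.5-fold, while Tspan4 (0.59) was higher, against 4.06% and 1.22% of all genes. The 18 clock genes compared had a median of -0.26, which turned to 0.16 when the filter was set at 50 CPM. Noct, a rhythmic gene that is not on the list, went from 50.7 to 10.3 CPM. Clock and feeding genes vary with the hour and with the last meal, and the hour at which the livers were taken is not given in the sources used here, so their part in these values was not tested.

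**Figure D3:**
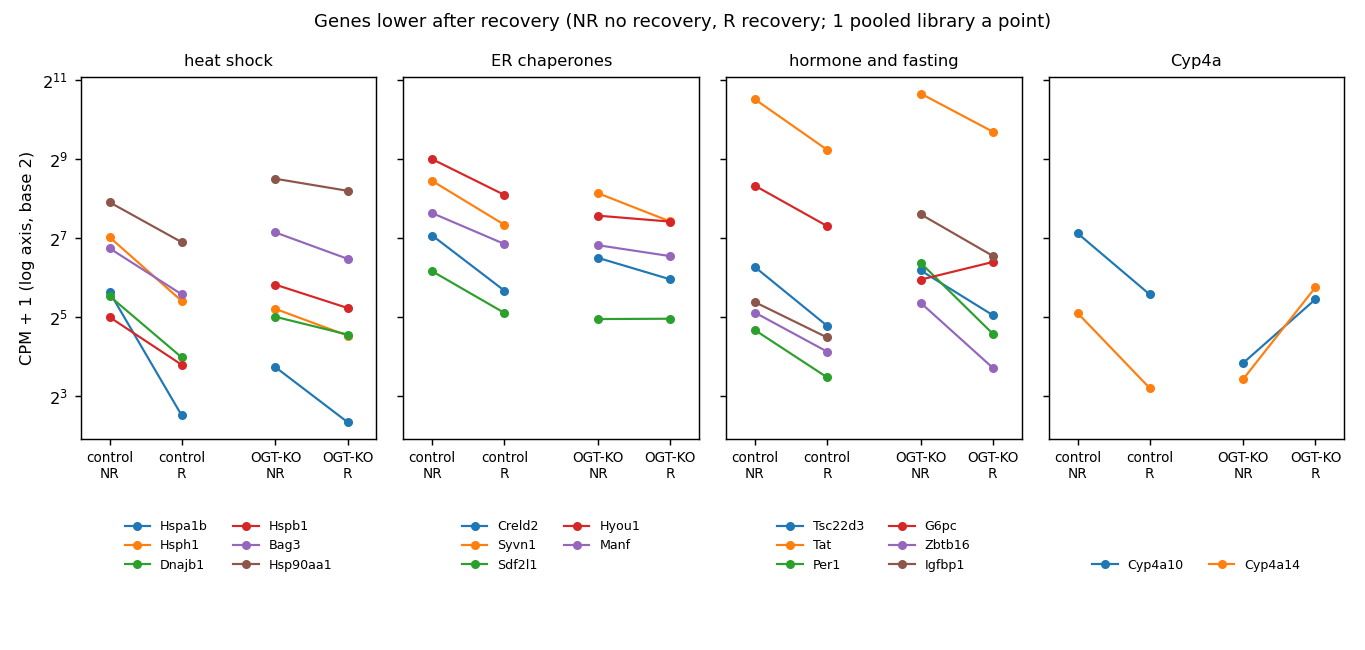
CPM + 1 on a log axis for chaperones, hormone and fasting responsive genes and 2 Cyp4a genes in the 4 pooled libraries, with a line joining no recovery (NR) and recovery (R) of a genotype; each point is 1 library. In control all lines drop, while in OGT-KO G6pc and both Cyp4a genes climb and Sdf2l1 stays level.

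Among fatty acid omega-hydroxylase genes of the Cyp4a family, 5 were compared and 2 of them had a positive change. Of the 5, 1 averaged under 10 CPM in control livers and passed the filter only through the libraries labelled OGT-KO. At 2-fold 2 fell and at 1.5-fold 3 were lower, against 0.96% and 4.06% of all genes. The 2 that fell were Cyp4a10 and Cyp4a14, microsomal enzymes induced by the fatty acid sensor Ppara. Cyp4a10 went from 138 to 46.4 CPM, a ratio of 0.337 (0.313 to 0.363), and Cyp4a14 from 33.2 to 8.16 CPM, a ratio of 0.246 (0.206 to 0.292). Under the OGT-KO label both were higher after recovery, at 13.3 and 42.5 CPM and at 9.75 and 52.7 CPM. The peroxisomal Acaa1b was at 1107 and 688 CPM (-0.68) and the thioesterase Acot1 at 15.3 and 8.66 CPM (-0.75). Of the 14 oxidation genes listed as mitochondrial none passed 1.5-fold (median -0.02). Of the 14 compared that were listed as microsomal or peroxisomal, 6 were at least 1.5-fold lower, against 4.06% of all genes. The lower ones listed as peroxisomal were Acaa1b, Acot1 and Crat (-0.73). These groups are those of the list, and whether the values differ by cell compartment was not tested. The Cyp4a copies resemble each other, and reads could be shared among them.

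Male-biased urinary protein genes were lower too. The Mup cluster encodes pheromone carriers secreted by the liver under growth hormone, and its members are so alike that reads may be split among them. Mup9 went from 61.3 to 15.8 CPM, and Mup17 from 1047 to 584 CPM (-0.84). Summed over the 16 of 17 listed Mup genes that are in the table, the level was 21307 and 17960 CPM, so the cluster as a whole differed less than Mup9. Mup9 and Mup17 had, under the OGT-KO label, 1 read each in either library. Socs2, a target and inhibitor of growth hormone signalling, rose from 22.0 to 53.4 CPM.

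Macrophage genes fell in the largest number. Of 30 listed Kupffer cell and macrophage genes 26 were compared, and 15 fell at 2-fold against 0.96% of all genes, with a median of -1.18. Among the 10 Kupffer cell genes 8 fell (median -1.35). Clec4f, the lectin that defines Kupffer cells, went from 77.2 to 28.2 CPM, a ratio of 0.365 (0.331 to 0.402). Cd5l had 73.3 and 25.6 CPM, and Vsig4, a complement receptor, 16.2 and 6.21 CPM. The complement genes C1qa, C1qb and C1qc had 47.1 and 18.2, 40.7 and 15.1, and 43.9 and 15.9 CPM. Timd4, the other Kupffer cell marker, did not pass the filter and was at 5.64 and 1.90 CPM. Among the 9 genes shared by all macrophages 6 fell. Lyz2 (lysozyme) had 47.1 and 15.9 CPM, Csf1r, the receptor for the macrophage growth factor, 52.4 and 22.2 CPM, and Adgre1 (F4/80) 10.1 and 3.45 CPM, a ratio of 0.343 (0.258 to 0.452). The 7 genes linked to monocyte-derived macrophages had a median of 0.00. Lgals3 fell from 4.70 to 1.55 CPM, and Fabp5, a fatty acid binding protein, rose from 16.2 to 42.1 CPM. Summed over the list, the level was 742 CPM with no recovery and 437 CPM after recovery. In whole tissue, fewer cells of a type and less RNA per cell cannot be told apart. Of the 26 genes compared, 12 had a mean under 10 CPM in control livers and passed the filter only through the libraries labelled OGT-KO. They were 3 of the 10 Kupffer cell genes, 5 of the 9 shared genes and 4 of the 7 monocyte-linked genes. Those that fell included Adgre1, Lgals3, Marco, Tyrobp, Cd68 and Cd163. The medians of these groups thus rest in part on genes low in control livers. With a pseudocount of 10 the list median was -0.58.

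Antigen presentation split by class. Ctss, Cd74, H2-Ab1, H2-Aa, H2-Eb1 and H2-DMa, the 6 compared genes of the class II route used by macrophages, dendritic cells and B cells, were all at least 1.5-fold lower (median -0.91), against 4.06% of all genes. Among them H2-DMa (6.92 and 4.21 CPM) averaged under 10 CPM in control livers and passed the filter only through the libraries labelled OGT-KO. Cd74, the invariant chain, had 74.2 and 36.1 CPM, and H2-Ab1 27.6 and 13.6 CPM. None of the 10 class I genes, which nearly every cell uses, passed 1.5-fold, and their median was 0.16. Lymphocyte markers were at the edge of detection, with Cd3e at 0.612 and 0.35 CPM and Cd79a at 0.47 and 0.3 CPM.

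Endothelial and stellate cell genes were lower by less. The 17 endothelial genes compared had a median of -0.53 with 5 at least 1.5-fold lower and 0 past 2-fold, against 4.06% and 0.96% of all genes lower. Clec4g, a lectin of sinusoidal endothelium, was at 40.2 and 27.3 CPM, Kdr, the receptor for vascular growth factor, at 37.5 and 25.5 CPM, and Stab2 at 45.6 and 33.9 CPM. The 14 stellate cell and myofibroblast genes had a median of -0.50; Rgs5, a pericyte gene, fell from 32.9 to 12.4 CPM, while Lrat, which stores vitamin A, was at 10.6 and 6.46 CPM and Acta2, the actin of myofibroblasts, at 5.22 and 2.95 CPM. Of 27 matrix genes 23 were below 0 and 1, Postn, fell at 2-fold (7.24 and 2.65 CPM), with a median of -0.36. Summed over the matrix list, the level was not lower, at 5171 CPM with no recovery and 5458 CPM after recovery. Of the compared genes, 12 of 27 matrix and 7 of 14 stellate genes, Postn, Acta2 and Lrat among them, averaged under 10 CPM in control livers and passed the filter only through the libraries labelled OGT-KO, where they are higher. Col1a1 and Col1a2, the chains of collagen I, were at 21.0 and 16.5 CPM and at 22.3 and 14.3 CPM. Collagen I was far higher in the libraries labelled OGT-KO, where Col1a1 had 875 and 1192 CPM. P4ha1, an enzyme that hydroxylates collagen prolines, fell from 27.8 to 6.71 CPM.

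**Figure D4:**
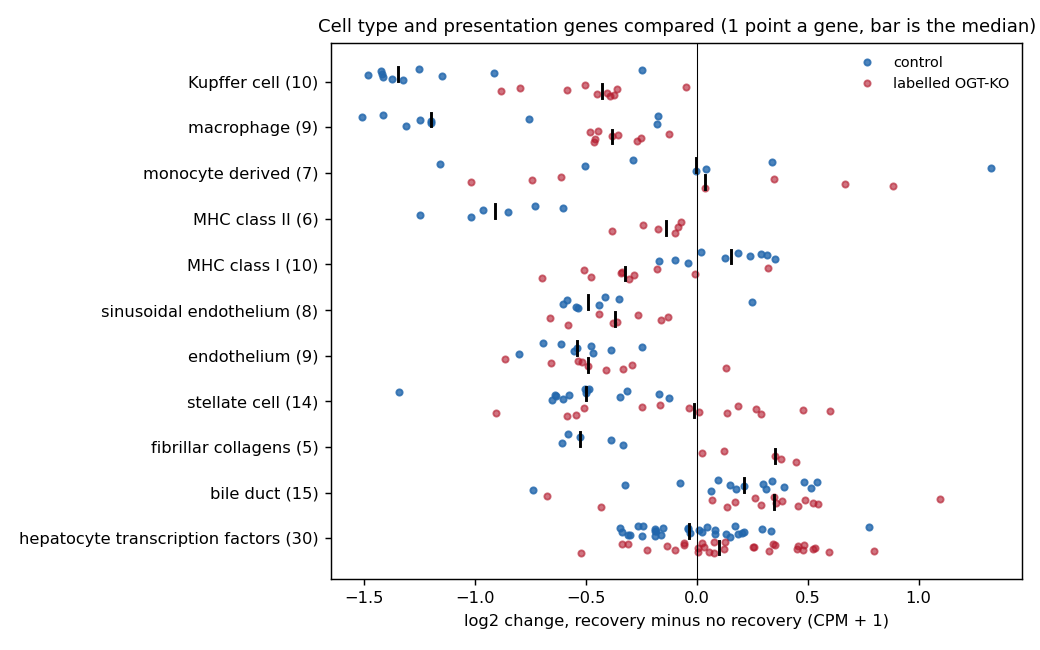
Each point is 1 compared gene of a cell type or presentation list, with its log2 change from no recovery to recovery on the x axis (blue, control; red, labelled OGT-KO; black bar, median of the row). In control the Kupffer cell row has its median at -1.35, class II at -0.91 and class I at 0.16, and the hepatocyte factor row is centred near 0.

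The remaining rises were single genes of several kinds. Tbx3, a Wnt-responsive transcription factor of pericentral hepatocytes, rose from 27.3 to 61.8 CPM. Axin2, a feedback gene of the same pathway, was at 7.39 and 13.1 CPM (0.75), short of 2-fold. Of the 13 pericentral genes compared, 1 passed 2-fold and 2 passed 1.5-fold upward, against 0.245% and 1.22% of all genes. Their median was 0.15, and that of the 25 zonation genes was 0.08. Gpcpd1, which releases choline from glycerophosphocholine, rose from 52.1 to 107 CPM, and it was the only one of the 15 choline and phosphatidylcholine genes compared to pass 1.5-fold. Arrdc3, an arrestin-like gene, had 72.8 and 228 CPM, Scara5, a ferritin receptor, 12.7 and 46.9 CPM, and Id2, an inhibitor of helix-loop-helix factors, 92.4 and 220 CPM. Gm7694 and B3galt1, at 8.89 and 39.0 CPM and at 24.1 and 69.0 CPM, were also among the 15 largest rises. Moxd1 and Fcna, the latter a ficolin made by macrophages, were among the 15 largest falls, at 100.1 and 27.2 CPM and at 33.8 and 11.9 CPM. Of the genes linked to Yap, Ccn2 fell from 8.14 to 3.00 CPM and Axl from 23.0 to 10.6 CPM, while the list of 17 had a median of -0.07. A filter at 50 CPM, averaged over the 4 libraries, left fewer of these genes and gave a median of -0.93. Ccn2 and Fstl1, which it kept, averaged 5.57 and 5.11 CPM in control livers. Both passed it only through the libraries labelled OGT-KO, so this median does not describe genes well expressed in control. The immediate early genes Klf2 (11.4 and 4.11 CPM) and Atf3 (2.96 and 0.801 CPM) fell from low levels, and so did Ugt1a9, a glucuronosyltransferase, from 27.6 to 12.9 CPM.

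Most metabolic and housekeeping functions stayed within 1.5-fold. None of the 76 ribosomal protein genes, 47 oxidative phosphorylation genes, 31 proteasome genes, 42 NRF2 and glutathione genes, 33 drug-metabolizing cytochrome P450 genes or 30 genes of cholesterol synthesis and LDL uptake passed 1.5-fold in control livers. The 47 hold no ATP synthase gene, as 0 of the 16 listed symbols were matched. Mitochondrially encoded genes formed a separate list, with 12 compared, all 12 with a positive change and a median of 0.22. Of these 12, 1 was at least 1.5-fold higher, against 1.22% of all genes. Cyp2e1 was at 5235 and 6470 CPM, and Bhmt, which rebuilds methionine from betaine, at 2298 and 2271 CPM. Growth genes were low in both control libraries, with Mki67 at 3.01 and 3.55 CPM and Top2a at 2.21 and 2.10 CPM; the 19 DNA replication genes had a median of -0.05 and the 19 mitosis genes 0.18, whereas the pair labelled OGT-KO had 0.71 and 0.91. Of these, 13 replication genes and 18 mitosis genes averaged under 10 CPM in control livers and were compared only because they are higher under the OGT-KO label, so their control medians describe genes near the filter or below it.

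**Figure D5:**
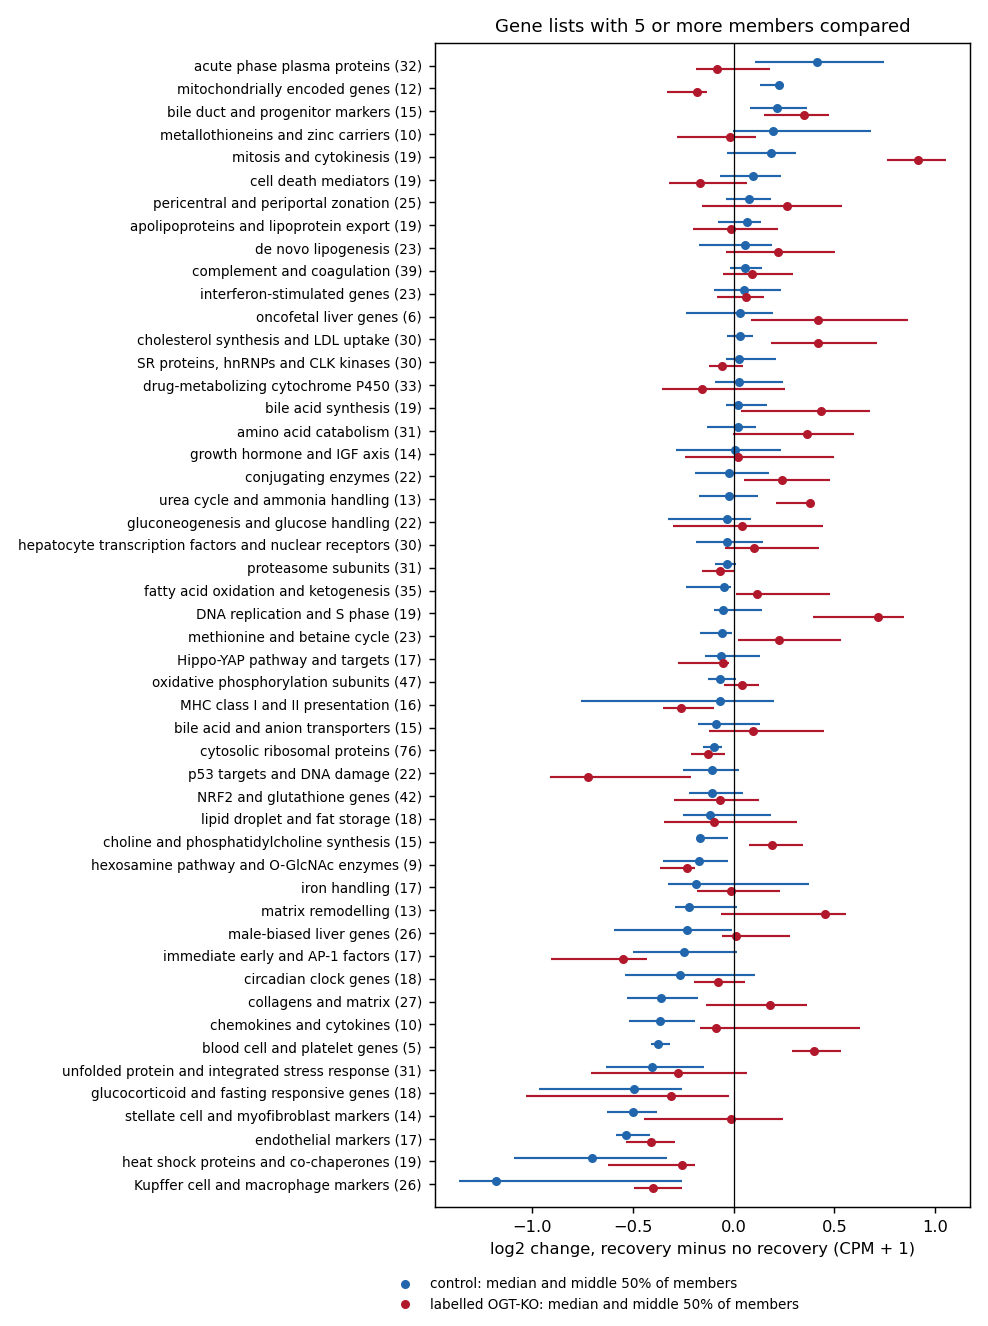
Median log2 change (point) and middle 50% of the members (line) of each gene list with 5 or more genes compared, for control (blue) and livers labelled OGT-KO (red); the x axis is recovery minus no recovery. Control medians run from -1.18 for macrophage genes to 0.41 for acute phase genes, with most lists close to 0.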

How the data were processed

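Bulk mRNA-seq of whole mouse liver was analysed, as 4 libraries of RNA pooled from 3 mice each. For 13903 genes the authors deposited CPM (counts per 1000000 reads on these genes). The deposited table is named for DESeq2 normalization, yet all 4 columns sum to 1000000. The submitters' processing notes name STAR, DESeq2 and GRCm39, without versions or settings, and how reads on near-identical copies were counted is not given in the sources used here. In every library 100% of the values were whole multiples of the value of 1 read, to within 0.01 read, so whole reads were recovered (19972699 to 22866431 a library). The design assumed values divided by size factors and was run on CPM as written. Noncoding RNA was not analysed here, and 0 value columns were left unused.

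The change of a gene is log2((recovery + 1)/(no recovery + 1)) in CPM, which shrinks the changes of weakly expressed genes, and it was read for genes whose 4 values averaged 10 CPM or more. With 1 library a condition, calls are by size (2-fold, with 1.5-fold beside it) and no p-value is given. Intervals are exact 95% counting intervals: Garwood for a level and Clopper-Pearson for a ratio. The 56 gene lists, the members and the alternatives were chosen with earlier results of these data known. Of the 1356 listed genes 1278 are in the table. Genes named were the 15 largest rises and 15 largest falls that also averaged 10 CPM in the control pair, list members past 2-fold, up to 6 of the most changed members of each list with a median of at least 0.3 or 3 members past 1.5-fold, cell type markers, and 2 high members of each other list. Genes outside this rule were chosen after their values were seen. They are Xbp1, Mtf1, Hsf1, Hspa1a, Tlr3, P4ha2 and the further genes named for a promoter match. Alternatives were pseudocounts of 0.1 and 10, 3 other scalings, other filters, a 4-fold limit and an exact binomial test on the whole reads (Benjamini-Hochberg adjusted), which sets library against library rather than condition against condition. Steps were tested on simulated reads. Promoters came from RefSeq (GRCm38.p6). Python 3.11.15, numpy 2.4.6, pandas 2.3.3, scipy 1.17.1 and matplotlib 3.10.9 were used.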

Additional observations from a re-analysis of the deposited data

Results flagged for a closer look

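In 9 named genes past 2-fold in control livers, the change went the other way in the libraries labelled OGT-KO, with counting intervals of both changes clear of no change. The difference between the genotypes was not tested, since each condition is 1 library. The control change minus the OGT-KO change, on the log2 scale, was 5.53 for Mt2 and 4.43 for Mt1, the metallothioneins. For the acute phase genes it was 2.04 for Lcn2, 1.52 for Steap4 and 1.44 for Serpina3n, and for Angptl8 it was 1.35. Among genes that fell in control livers it was -4.22 for Cyp4a14, -3.16 for Cyp4a10 and -1.47 for G6pc.

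Of the lists with 5 or more genes compared and a control median of at least 0.3 in either direction, 3 had a median of the opposite sign in the libraries labelled OGT-KO. The control median minus the OGT-KO median was 0.50 for acute phase genes, -0.54 for collagens and matrix, and -0.77 for blood cell and platelet genes. Of the last list 5 genes were compared, all erythroid, and 0 platelet genes. These differences were not tested either.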

How the results depend on the processing

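No paired analysis was possible because each condition is 1 library, and for the same reason no library could be left out. Scaling by upper quartile, by median ratio or to equal totals without the 100 highest genes kept the 4 counts within 1.5 times of 22 and 86 genes at 2-fold and 109 and 364 at 1.5-fold, and moved the median of all genes by at most 0.06. Higher and lower at 2-fold, the counts were 35 and 130 with a pseudocount of 0.1, 12 and 21 with a pseudocount of 10, 11 and 31 with a mean of at least 50 CPM, and 3 and 2 at 4-fold. Without a filter 134 genes were lower at 2-fold, and 209 and 685 higher and lower at 1.5-fold. A pseudocount of 10 gave 43 and 104 at 1.5-fold, and a mean of at least 50 CPM gave 37 and 98. With a mean of at least 10 CPM asked of the control libraries, 45 were lower at 2-fold and 198 at 1.5-fold. All 108 genes past 2-fold were also called by the exact binomial test, which called 3557 of 8963 genes at an adjusted p under 0.05. It measures counting error between 2 libraries only.

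Of the 61 named genes past 2-fold, 3 to 6 dropped below it under the other scalings, 29 with a pseudocount of 10 and 0 with one of 0.1, and 0 changed sign under any of these. The macrophage median ranged from -1.32 to -0.58, heat shock from -0.72 to -0.65, glucocorticoid and fasting from -0.56 to -0.33, and acute phase from 0.29 to 0.47. Clock genes ranged from -0.28 to 0.16, with the upper end from 1 setting, a mean of at least 50 CPM, which leaves fewer genes in each list. The same setting took the Hippo-YAP median from -0.07 to -0.93, the presentation median from -0.07 to -0.45 and the metallothionein and zinc median from 0.20 to 0.82. Its mean is over all 4 libraries, so genes low in control livers can pass it through the libraries labelled OGT-KO. The depth limits mainly genes near 10 CPM and below.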

Other observations

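Iron genes did not move as a block in control livers. Tfrc, the transferrin receptor through which cells take up iron, was at 28.5 CPM with no recovery and 16.1 CPM after recovery (log2 change -0.79), while Hamp and its regulator target Id1 were on the higher side at 0.65 and 0.69. Of the 17 iron genes compared, 4 were at least 1.5-fold higher and 1 was lower, against 1.22% and 4.06% of all genes. The higher ones were Hamp, Id1, Hamp2 and Lcn2, the last also counted among the acute phase genes. Id1 (3.95 and 7.01 CPM) and Hamp2 (6.02 and 10.1 CPM) averaged under 10 CPM in control livers. They passed the filter only through the libraries labelled OGT-KO. In the libraries labelled OGT-KO Tfrc had 35.3 and 45.1 CPM. Haemoglobin RNA, a measure of blood left in the tissue, was lower in the later control library, with Hbb-bs at 79.3 and 61.0 CPM.

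Most sulfotransferases compared were on the higher side. Of the 5, 4 had a positive change and the median was 0.41. At 1.5-fold 2 were higher and 0 lower, against 1.22% and 4.06% of all genes. Sult1a1 was at 133 and 210 CPM (0.65) and Sult1d1 at 63.9 and 97.0 CPM (0.60), while Sult5a1 was at 32.9 and 22.4 CPM (-0.54). The 22 conjugating genes compared, which include these 5, had a median of -0.02. The hormone-binding proteins Igfbp3 and Igfbp2 lay on opposite sides, at -0.74 and 0.50.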
